A study of Gallus gallus with 8 samples.

Results

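The data are the Otx2 peaks of 2 CUT&RUN libraries from wild-type chick retina at embryonic stage E5, one digested for 25 min and one for 30 min. The antibody against Otx2 came from Proteintech. The members are every peak of the lists deposited for these libraries, with chromosome M left out. They number 11494 peaks at 25 min and 9043 at 30 min, together 20537 of the 40976 peaks in the 4 Otx2 and Oc1 lists of the series. In CUT&RUN an antibody directs a nuclease to the protein of interest on chromatin, and the fragments it frees are sequenced. All groups share the tissue, stage and wild-type genotype, and the retina was dissociated before the assay. The labels do not give the number of embryos, so a peak is a property of a mixture of retinal cells, in which fewer cells with a bound site and weaker binding per cell cannot be told apart. The 4 samples of H3K27me3 and IgG were not analysed here. With 1 library per antibody and time there is no replicate of a condition, and no difference between the times was tested.

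Otx2 is a homeodomain transcription factor that binds DNA at short sites and is known in the vertebrate retina for its part in the formation of photoreceptors and bipolar cells. Oc1 (Onecut1) is another homeodomain factor of the early retina, known for its part in horizontal cells and cones. In CUT&RUN a longer digestion gives the nuclease more time to cut, both beside the antibody and elsewhere. The pair of times shows how far the position and shape of Otx2 peaks carry over from one digestion to the other.

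The 5 sites named first were chosen among overlapping pairs of peaks, so being found at both times was part of the choice. In these pairs the places of highest signal lay at most 45 bases apart. The highest fold of any paired peak at 25 min, 36.7, was not among these 5. By a rule on the smaller −log10 q of the pair, the first lay on chromosome 14 of galGal5, the chicken build named in the submitters' processing notes. Its peak at 25 min spanned 11334093 to 11334649, and its peak at 30 min spanned 11334178 to 11334594. The authors' fold enrichment was 27.7 and 25.3, and the summits, which are the positions of highest signal, lay 11 bases apart. The second, on chromosome 11, spanned 17879073 to 17879710 at 25 min and 17879069 to 17879639 at 30 min. It had folds of 27.04 and 23.8 and summits 13 bases apart. On chromosome 5 the peak that began at 44372594 and ended at 44373095 at 25 min had folds of 22.8 and 19.98 and summits 43 bases apart. On chromosome 2 the peak between 125703093 and 125703786 (25 min) had folds of 19.1 and 21.1 and summits 27 bases apart. The fifth site, on chromosome 1 between 62013833 and 62014357 (25 min), had folds of 23.7 and 20.2 and summits 45 bases apart. In all 5 pairs the peak at 30 min was the narrower of the pair, by 67 to 221 bases. The site on chromosome 5 overlapped no Oc1 peak at either time, and the other 4 overlapped an Oc1 peak at 1 or both times. The genes beside these sites were not identified here.

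Across the lists, 5995 of the 11494 peaks of the 25 min library met a peak of the 30 min library by at least 1 base. This is 52.2% (Wilson 95% interval 51.2 to 53.1%). Of the 9043 peaks at 30 min, 6204 met one of the 25 min library, or 68.6% (67.6 to 69.6%). These intervals, like all below, carry counting error over peaks and not the spread between preparations. A further 5499 peaks were found at 25 min only and 2839 at 30 min only. A stricter definition, with 50% or more of both peaks inside the overlap, lowered the shares to 32.6% and 41.4%. By −log10 q, the excess at 25 min lay among weak peaks. With a −log10 q of at least 5, 6041 peaks remained at 25 min and 6172 at 30 min, and the shares were 55.0% and 55.4%. By fold, more strong peaks were also counted at 25 min. A fold of at least 10 was reached by 1174 peaks at 25 min and 906 at 30 min, and a fold of at least 15 by 197 and 84. The libraries were scaled separately, so a fold cut is not alike in the lists. With at least 10 reads at the summit, before scaling, 2451 peaks remained at 25 min and 2541 at 30 min.

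The share found at the other time rose with the number of reads behind the peak. The read number at the summit was recovered from the deposited fold and p-value. The median was 6 reads at 25 min and 8 at 30 min, both before the scaling by 0.845 that was recovered for the library at 30 min. At 25 min the share was 23.5% for peaks of 5 or fewer reads, 47.9% for 6 to 7 reads, 72.1% for 8 to 9, 85.8% for 10 to 12 and 94.7% for 13 or more. At 30 min it was 46.5%, 55.5%, 73.3%, 89.4% and 96.4% in the same order. The times differed most among the weakest peaks, with intervals of 22.2 to 24.8% at 25 min and 43.8 to 49.3% at 30 min. This class is not alike in the lists, since it reached down to 3 reads at 25 min and to 4 at 30 min. The part of this floor and of the scaling in the difference was not tested. For 8 to 9 reads the intervals overlapped, at 70.0 to 74.1% and 71.4 to 75.2%. They lay just apart for 10 to 12 reads, at 83.8 to 87.6% and 87.7 to 90.9%, and overlapped again for 13 or more. By fold, all 197 peaks of at least 15 at 25 min and all 84 such peaks at 30 min were shared, and the lower bounds of the intervals were 98.1% and 95.6%.

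**Figure D1:**
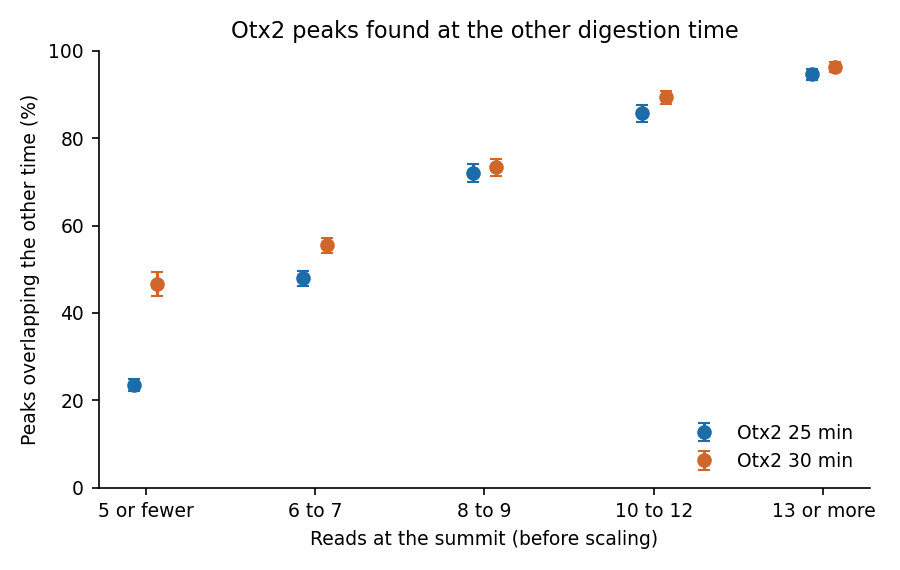
Share of Otx2 peaks that overlap a peak of the other digestion time, in percent on the vertical axis, by reads at the summit on the horizontal axis, for 25 min (blue) and 30 min (orange). Bars are Wilson 95% intervals; at 25 min the share rises from 23.5% to 94.7%, and at 30 min it rises from 46.5% to 96.4%.

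Peaks of one time only were the weaker class, with a median of 5 summit reads at 25 min and 6 at 30 min, against 8 for shared peaks at each time. At 25 min their median fold was 5.03 (quartiles 4.22 to 5.91), against 6.76 (5.41 to 9.20) for shared peaks. At 30 min the medians were 5.48 (4.72 to 6.24) and 6.75 (5.48 to 8.53). Peaks of at most 5 summit reads made up 56.0% (54.7 to 57.3%) of those found at 25 min only and 15.7% (14.8 to 16.7%) of the shared ones. At 30 min these shares were 24.2% (22.7 to 25.8%) and 9.66% (8.94 to 10.4%). A fold of at least 10 was reached by 51 peaks found at 25 min only and by 27 found at 30 min only, compared with 1123 and 879 shared peaks.

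These few strong peaks of one time were described one by one. The strongest at 25 min only, by −log10 q, lay on chromosome 5 between 56008599 and 56008951. It had a fold of 14.2 on 16 reads, and the nearest peak at 30 min began 7415 bases away. Oc1 had a peak there at both times, with folds of 21.7 and 7.44. The next, also on chromosome 5 (38920911 to 38921445), had a fold of 13.5 on 15 reads, a gap of 37627 bases to the nearest peak at 30 min and no Oc1 peak. The other 3 had folds of 12.7 to 13.2 and gaps of 5780 to 21022 bases.

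The strongest at 30 min only lay on chromosome 14 between 6614735 and 6615012, and its fold was 14.6 on 18 reads. A peak at 25 min was 78 bases from it, so this site was counted as found at one time although both lists had a peak close by. The next, on chromosome 5 (46829669 to 46829888), had a fold of 12.3 on 15 reads and lay 23620 bases from the nearest peak at 25 min. A peak on chromosome 11 (9052928 to 9053169) had a fold of 11.96. Oc1 had folds of 11.3 and 20.1 there at 25 and 30 min, while Otx2 had no peak within 9071 bases at 25 min. Of the peaks with a fold of at least 10 found at one time only, 4 of 51 at 25 min and 9 of 27 at 30 min lay within 1000 bases of a peak of the other time.

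Peaks were narrower at 30 min. The median width was 250 bases (quartiles 176 to 363) at 25 min and 181 bases (128 to 264) at 30 min. The smallest width in a list, which is taken as the length to which the caller extended reads, was 157 bases at 25 min and 107 bases at 30 min. Its part in the difference was not tested. Shared peaks were the wider class at each time, with a median of 322 bases against 197 for those of one time at 25 min, and 213 against 139 at 30 min. The smallest width was held by 30.4% (29.2 to 31.7%) of peaks found at 25 min only and 6.71% (6.10 to 7.37%) of shared ones. At 30 min it was held by 27.02% (25.4 to 28.7%) and 8.83% (8.15 to 9.56%). Of the 1200 peaks of at least 500 bases at 25 min, 92.7% were shared. Of the 258 such peaks at 30 min, 100% were shared.

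**Figure D2:**
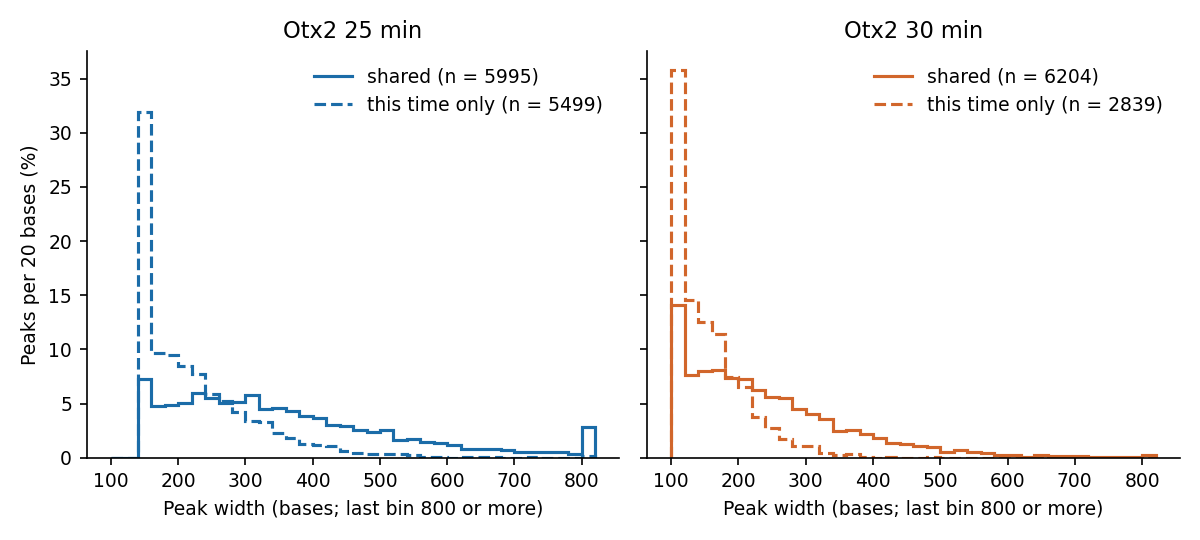
Widths of Otx2 peaks in bases (horizontal axis, bins of 20) as a percent of each class (vertical axis), for 25 min (left) and 30 min (right), with shared peaks as solid lines and peaks of one time as dashed lines. Peaks of one time pile up at the smallest width of each list, 157 and 107 bases, and the shared peaks reach further to the right.

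To compare shapes at the same site, peaks were matched one to one, each being the overlapping peak with the nearest summit of the other. This gave 5962 pairs. The peak at 30 min was the narrower one in 80.8% of pairs (79.7 to 81.7%) and the wider one in 19.0%. The median difference in width, 30 minus 25 min, was -96 bases (quartiles -195 to -23). Both edges moved inward by similar amounts, the left edge by a median of 46 bases and the right edge by a median of -47 bases. In 47.6% of pairs the peak at 30 min lay wholly within the one at 25 min, and the reverse held in 6.51%. In bases, the difference grew with strength. It was -78 bases where the smaller fold of the pair was under 5, -101 bases for folds of 6 to 8 and -142.5 bases in the 30 pairs with folds of at least 15. The median widths at 25 and 30 min were 256 and 166 bases in the weakest class and 672.5 and 518.5 bases in the strongest. Relative to these widths, the difference was smaller in the strongest class than in the weakest.

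Wide peaks at 25 min could take in several peaks at 30 min. Of the peaks at 25 min, 241 overlapped 2 or more peaks at 30 min, while 40 peaks at 30 min overlapped 2 at 25 min. The 234 peaks at 25 min that overlapped exactly 2 had a median width of 669 bases and a median fold of 8.50. The 5754 that overlapped 1 had 315 bases and 6.76. One peak at 25 min overlapped 4. It lay on chromosome 1, from 101040159 to 101042086, and was the widest of its list, at 1928 bases. Its 4 counterparts at 30 min were 148 to 749 bases wide, with folds of 2.61 to 5.86. Its own fold was 4.56 on 66 summit reads, below the median of 11.8 for the shared peaks of 13 or more reads. A fold this low on so many reads means a local background well above the smallest of the list.

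The summits of matched peaks lay a median of 55 bases apart (quartiles 25 to 102). They were within 10 bases in 11.3% of pairs (10.5 to 12.2%), within 50 bases in 46.3% (45.0 to 47.5%), within 100 bases in 74.5% (73.4 to 75.6%) and within 200 bases in 95.4% (94.8 to 95.9%). The displacement had no preferred direction along the chromosome. The summit at 30 min lay at the higher position in 50.2% of pairs (48.9 to 51.5%) and at the lower in 49.3% (48.1 to 50.6%), and the median signed distance was 1 base. In 27 pairs the summits fell on the same base. The summit at 30 min lay inside the peak at 25 min in 91.6% of pairs, and the summit at 25 min lay inside the narrower peak at 30 min in 78.7%. Within their own peaks, summits sat at a median of 47.9% of the width at 25 min and 47.8% at 30 min.

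**Figure D3:**
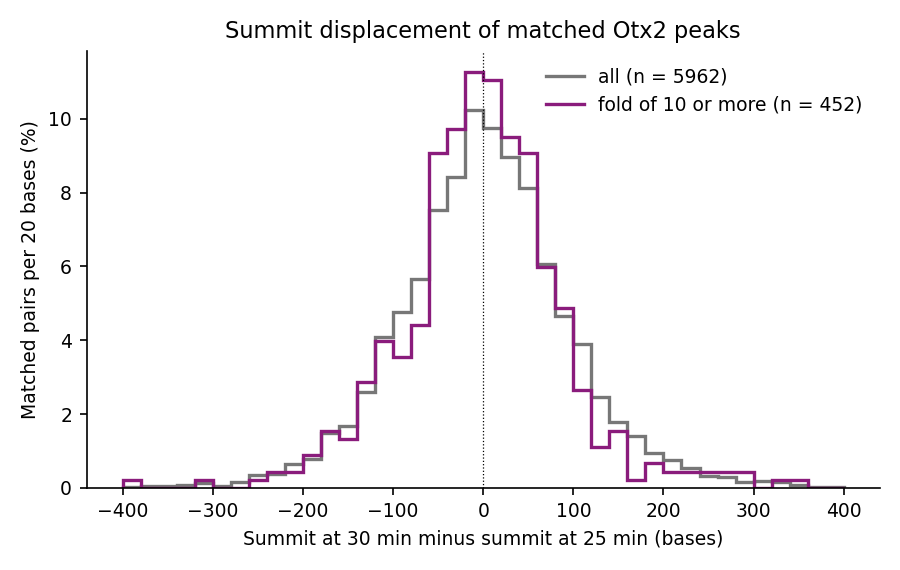
Signed distance between the summits of matched Otx2 peaks, 30 min minus 25 min, in bases (horizontal axis, bins of 20) as a percent of pairs (vertical axis), for all 5962 pairs (grey) and the 452 pairs with a fold of at least 10 at both times (purple). Both are centred near 0 and nearly symmetric, and the axis ends at 400 bases on each side.

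Summits lay closer together at folds of at least 10 than at folds under 5, without a steady fall between. The median distance was 58 bases (95% interval of the median 55 to 62) where the smaller fold was under 5. It was 53 bases for folds of 6 to 8 and 54 bases (50 to 62) for folds of 8 to 10. It was 50 bases (45 to 54) for folds of 10 to 15 and 34.5 bases (13 to 54) in the 30 pairs of at least 15. The share within 50 bases was 44.4% (42.0 to 46.8%) in the weakest class and 63.3% (45.5 to 78.1%) in the strongest, with overlapping intervals. Among wider peaks the summits lay farther apart. The median distance was 47 bases for peaks under 200 bases wide at 25 min and 76 bases for those of at least 600. Matched peaks must overlap, which limits the distance possible between the summits of narrow peaks. The part of this limit in the trend was not tested. Among the 452 pairs with a fold of at least 10 at both times, 21 had summits more than 200 bases apart.

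The most displaced of these lay on chromosome 7. Its summit was at 22217934 at 25 min and at 22217463 at 30 min, 471 bases away, in peaks of 890 and 709 bases with folds of 11.7 and 10.8. On chromosome 1 a peak of 1369 bases at 25 min had its summit at 89101438, and its 834-base counterpart had its summit at 89101861, 423 bases away. On chromosome 21 the distance was 381 bases, from 1493336 to 1492955, with folds of 16.02 and 13.9. All 3 were wide peaks of at least 709 bases at each time. Since matched peaks overlap, their widths limit how far apart the summits can lie. The narrowest strong pair, on chromosome 4, had widths of 291 and 147 bases, folds of 17.9 and 13.2 and summits 12 bases apart, at 22426999 and 22427011. Its local background was 3.39 and 9.27 times the smallest background of the list at 25 and 30 min. Of the next narrowest strong pairs, that on chromosome 1 had widths of 253 and 207 bases and summits 53 bases apart. That on chromosome 4, from 71507546 to 71507853 at 25 min, had widths of 308 and 188 bases and summits 64 bases apart. These distances of 53 and 64 bases were above the median of 50 bases for the 452 pairs.

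As a scale for these distances, the same matching was run on other pairs of lists. Between the Oc1 lists of both times the median distance was 52 bases (quartiles 21 to 99), with 49.1% (47.9 to 50.4%) within 50 bases. Between Otx2 and Oc1 it was 63 bases at 25 min and 65 bases at 30 min, with 41.9% (40.5 to 43.5%) and 40.6% (39.1 to 42.2%) within 50 bases. The Otx2 pair of times, at 46.3%, lay between these values. Across times the Otx2 and Oc1 distances were 65 bases (Otx2 at 25 min) and 59 bases (Otx2 at 30 min). The shares within 50 bases were 40.1% (38.6 to 41.6%) and 44.7% (43.0 to 46.3%). The second interval overlaps that of the Otx2 pair of times, 45.0 to 47.5%. The lists differ in read extension and peak width, whose part in these distances was not tested.

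The folds of the lists are given side by side, since the libraries were scaled separately. The median fold was 5.85 at 25 min and 6.24 at 30 min. This order turned with a −log10 q of at least 5, where the medians were 7.39 and 7.01, and was kept among the 5000 strongest peaks of each list, at 7.60 and 7.70. The highest fold was 36.7 at 25 min and 25.3 at 30 min. A fold of at least 10 was reached by 10.2% of peaks at 25 min and 10.02% at 30 min. Of the 1122 matched pairs with a fold of at least 10 at 25 min, and of the 859 at 30 min, 452 reached it at both.

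Otx2 peaks were unevenly spaced, with many close neighbours and long empty stretches. The median distance from a summit to the next of the same list was 26881 bases (quartiles 5704 to 96963) at 25 min and 30154 bases (5795 to 114524) at 30 min. The order turned with a −log10 q of at least 5, with medians of 52995.5 and 46180 bases, and in lists of equal length, the 5000 strongest peaks of each, with 64795 and 58153 bases. The share of close neighbours had overlapping intervals at the 2 times. The next summit was closer than 1000 bases in 7.02% (6.57 to 7.51%) and 7.71% (7.18 to 8.28%) of cases, and closer than 10000 bases in 33.1% and 32.2%. When neighbouring peaks 10000 bases or less apart were joined into runs, 9.88% of peaks at 25 min and 9.12% at 30 min fell in runs of 5 or more, and 48.1% and 48.9% stood alone.

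Peaks in runs were found at the other time more often. At 25 min the share was 46.0% (44.7 to 47.3%) for peaks that stood alone, 56.4% (55.0 to 57.8%) in runs of 2 to 4 and 64.1% (61.3 to 66.8%) in runs of 5 or more. At 30 min it was 63.8% (62.3 to 65.2%), 72.4% (71.0 to 73.8%) and 77.1% (74.1 to 79.8%). Summit reads moved with this, with medians of 6, 7 and 7 reads at 25 min and 7, 8 and 9 reads at 30 min, and their part in the result was not tested. The densest stretch of 100 kb was the same place at both times. It lay on chromosome 11, from 17860470 to 17960469 for 25 min, with 28 peaks at 25 min and 29 at 30 min, and included the second of the strongest sites above. Of these, 20 and 22 were shared, and the median fold was 7.18 and 7.01. For 30 min the densest stretch began at 17877353 and held 31 peaks, a number that 3 windows reached.

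Few peaks of one time lay beside a peak of the other. The gap to the nearest peak of the other time had a median of 16493 bases for peaks found at 25 min only and 9720 bases for those found at 30 min only. It was at most 100 bases for 2.98% (2.57 to 3.47%) and 4.79% (4.06 to 5.64%), and at most 1000 bases for 13.7% and 16.8%. The list at 25 min, against which peaks of 30 min are measured, is the longer one.

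By chromosome, Otx2 peaks were denser on the other numbered chromosomes as a class than on chromosomes 1 to 5 at both times. Birds have a few large chromosomes and many small, gene-dense microchromosomes. The span of a chromosome was taken as the position of its last Otx2 peak. Over the 24 chromosomes with at least 100 peaks in each list, density ran from 7.01 peaks per Mb on Z to 41.8 on chromosome 26 at 25 min, and from 4.86 to 35.1 on the same chromosomes at 30 min. This minimum drops short chromosomes with few peaks. Among those left out, density at 25 min was 3.26 peaks per Mb on chromosome 16, 2.50 on LGE64 and 0.601 on W, all below Z. On the other 6 left out it ran from 13.8 on chromosome 32, with 1 peak, to 31.6 on chromosome 33, with 15.3 on 25, 17.3 on 27, 18.02 on 22 and 21.9 on 28. Chromosomes 1 to 5 held 46.8% (45.9 to 47.7%) of peaks at 25 min and 45.5% (44.5 to 46.6%) at 30 min, at 8.86 and 6.79 peaks per Mb. The other numbered chromosomes held 48.2% (47.3 to 49.1%) and 50.1% (49.0 to 51.1%), at 17.3 and 14.1 per Mb.

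The ratio of peak numbers varied over the chromosomes, and no interval was computed for it. The share of the list on each class of chromosomes had overlapping intervals at the 2 times. Peak numbers at 30 min were 0.787 times those at 25 min over all chromosomes, 0.766 times on chromosomes 1 to 5 and 0.817 times on the other numbered ones. Among the 24 chromosomes the ratio was lowest on Z, at 0.693 with 573 and 397 peaks, and highest on chromosome 15, at 0.880 with 309 and 272 peaks. Chromosome 27, which the minimum leaves out, had a lower ratio than Z, at 0.660 with 97 and 64 peaks. Z is the sex chromosome of which male birds carry a pair and females one copy, and the sex of the embryos is not given in the labels. Its share of all peaks was 4.99% (4.60 to 5.40%) at 25 min and 4.39% (3.99 to 4.83%) at 30 min, also with overlapping intervals. Among peaks of at least 10 summit reads, Z had 120 and 111 peaks, a ratio of 0.925, while the ratio over all chromosomes was 1.04 with 2451 and 2541 peaks. In this class Z was not the lowest of the 24: the ratio was 0.906 on chromosome 14 and 0.924 on chromosome 1. The shared part of the list at 25 min followed the same order, with 50.3% (48.9 to 51.6%) on chromosomes 1 to 5, 54.5% (53.1 to 55.8%) on the other numbered ones and 48.0% (43.9 to 52.1%) on Z. The median summit reads at 25 min were 6, 7 and 6, and their part was not tested. At 30 min the shared part was 68.2%, 68.8% and 70.5%, with overlapping intervals. The lists hold nearly equal numbers of shared peaks. With like shares at 30 min, the order at 25 min is therefore tied to the ratio of peak numbers and is not a separate result. The 2 peaks on LGE64 and the 1 on W were found at 25 min only.

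**Figure D4:**
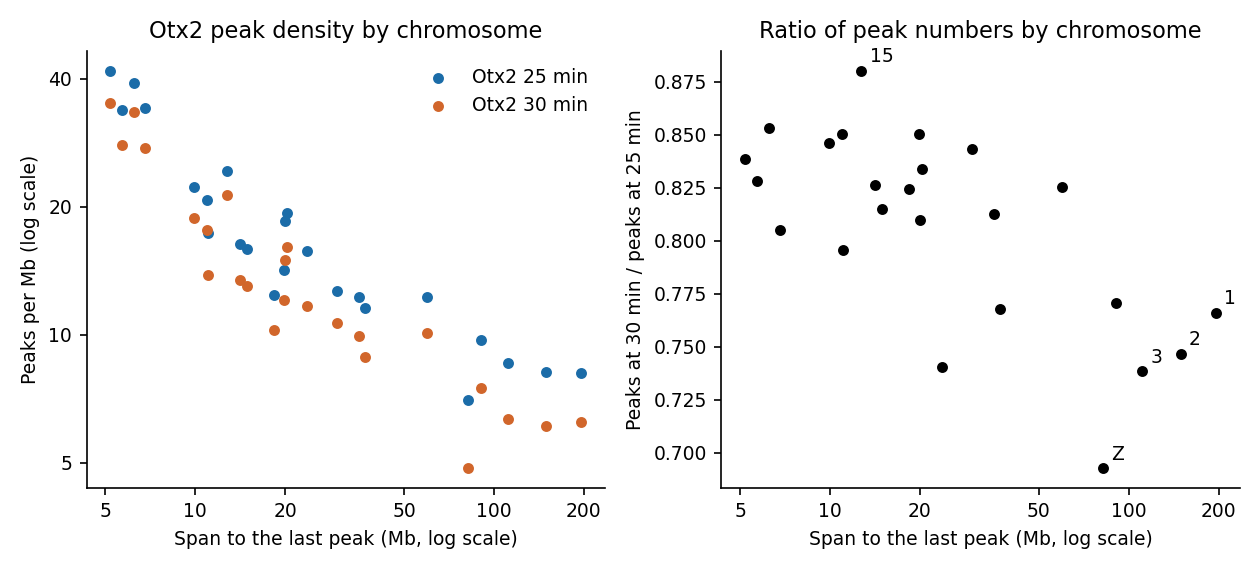
Left, Otx2 peaks per Mb (log scale) against the span of each chromosome to its last peak in Mb (log scale), for 25 min (blue) and 30 min (orange); right, peaks at 30 min divided by peaks at 25 min against the same span. Each point is 1 of the 24 chromosomes with at least 100 peaks in each list; the minimum removes short chromosomes with few peaks, and of the chromosomes drawn Z has the lowest ratio, 0.693.

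Overlap with Oc1 was a readout that did not enter the sorting into shared and one-time peaks. Shared Otx2 peaks overlapped an Oc1 peak of either time in 56.5% (55.2 to 57.7%) of cases at 25 min and 55.9% (54.6 to 57.1%) at 30 min. For peaks of one time the values were 33.5% (32.3 to 34.8%) and 34.9% (33.2 to 36.7%). Read number moved with this too, so the classes were compared at like read numbers. At 25 min, peaks of 5 or fewer reads overlapped Oc1 in 37.2% of shared and 26.6% of one-time cases, and peaks of 6 to 7 reads in 47.6% and 37.2%. With 8 to 9 reads the values were 54.3% (51.6 to 56.9%) and 49.5% (45.2 to 53.8%), and with 10 to 12 reads 66.8% and 67.2%, so the classes came together as reads increased. At 13 or more reads they parted again, with 78.0% of 1082 shared peaks and 46.7% (34.6 to 59.1%) of 60 one-time peaks. Of these 60, 28 had a local background more than 5 times the smallest of the list, compared with 141 of the 1082 shared ones. The median widths were 294.5 and 499.5 bases. With strength taken as a fold of at least 10 the classes lay closer, at 60.8% of 51 one-time peaks and 74.8% of 1123 shared peaks. Such a background was held by 0 of these 51 and 12 of these 1123. Fold is set against the local background, so this cut itself drops peaks with a high background.

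At 30 min the one-time peaks stayed lower at every read number. The shares were 41.7% and 33.9% for 5 or fewer reads, 47.4% and 32.6% for 6 to 7, 54.3% and 39.5% for 8 to 9, 62.0% and 43.2% for 10 to 12, and 72.9% and 41.0% for 13 or more. The intervals of the shared and one-time classes did not overlap in any of these 5 classes. In the last class, 16 of the 39 one-time peaks and 236 of the 1036 shared peaks had a background more than 5 times the smallest. The one-time peaks of this class had a median width of 167 bases and the shared peaks 333 bases. With strength taken as a fold of at least 10, the shares at 30 min were 71.2% of 879 shared peaks and 44.4% of 27 one-time peaks. Such a background was held by 14 of these 879 and 0 of these 27. Their median widths were 342 and 246 bases. The classes were not compared at like widths, and the part of width in the overlap with Oc1 was not tested at either time.

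**Figure D5:**
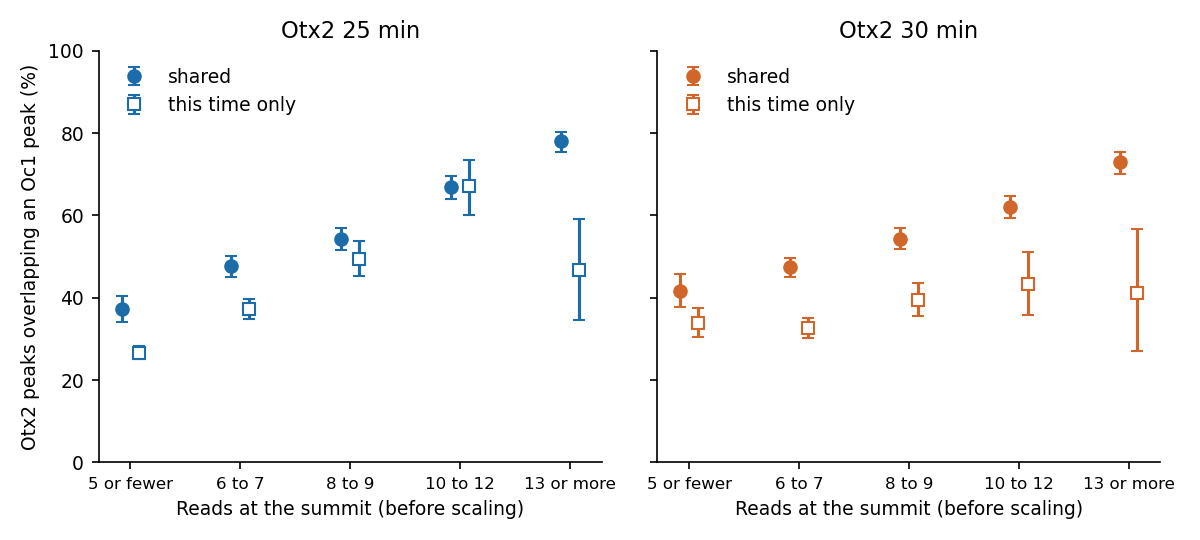
Share of Otx2 peaks that overlap an Oc1 peak of either time, in percent (vertical axis), by reads at the summit (horizontal axis), for 25 min (left) and 30 min (right), with shared peaks as filled circles and one-time peaks as open squares. Bars are Wilson 95% intervals. At 25 min the classes meet at 10 to 12 reads and part again at 13 or more, and at 30 min they stay apart.

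One-time Otx2 peaks also matched Oc1 peaks of their own time more often than those of the other time. Peaks found at 25 min only overlapped Oc1 at 25 min in 26.8% of cases and Oc1 at 30 min in 23.6%, a difference of 3.15 percentage points (95% interval from the discordant peaks 2.07 to 4.22), although the Oc1 list at 30 min is the longer, with 10663 against 9776 peaks. Peaks found at 30 min only overlapped Oc1 at 30 min in 29.6% and Oc1 at 25 min in 23.4%, a difference of 6.13 points (4.64 to 7.62). Here the Oc1 list of the same time is the longer one, and its matched peaks were wider by a median of 25 bases. The part of list length and width was not tested. For shared peaks the difference between own and other time was -1.35 points (-2.45 to -0.257) at 25 min and 1.61 points (0.537 to 2.69) at 30 min. In one-time peaks of at least 8 reads it was 3.59 points (0.355 to 6.82) and 4.89 points (1.83 to 7.95). Libraries of the same time also had the same control depth as recovered from their lists. It was 1.88 reads per kb for both antibodies at 25 min and 1.01 for both at 30 min. The part of a control common to both antibodies in this result was not tested.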

How the data were processed

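Peak lists of the Otx2 and Oc1 CUT&RUN libraries were analysed. Bowtie2, SAMtools, deepTools and MACS2 and the build galGal5 are named in the submitters' processing notes, with no version or setting, and duplicate handling, control and threshold are not given in the sources used here. The authors deposited 1 list per library in the narrowPeak layout. Its deposited columns are position, a score (the whole part of 10 × −log10 q), fold enrichment (a ratio), −log10 p, −log10 q and the summit offset, a position in bases. All folds and q-values are those the authors deposited. The smallest −log10 q was 1.31 at 25 min and 1.38 at 30 min.

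From these, coordinates were counted from 1, and chromosome M, with 1 peak in each Otx2 list, was left out. Peaks overlapping by 1 base or more were shared. Summit reads and local background were recovered from fold and p with a Poisson model, to within 0.002 in −log10 p for 100% of Otx2 peaks. Read totals are unknown. The smallest background in each list, divided by the smallest width, gave a genome-wide depth of 1.17 reads per kb at 25 min and 1.19 at 30 min before scaling. Python 3.11.15 with NumPy 2.4.6, pandas 2.3.3 and SciPy 1.17.1 was used. Overlap, summit matching and read recovery were tested on simulated data, whose read numbers did not reach the lowest and highest of the lists. The other steps were not tested in this way. Alternatives were other overlap rules, stricter or equal-length lists, chromosome M kept and numbered chromosomes only. Members and measures were chosen with earlier results of these data known. Named regions follow fixed rules: the 5 strongest shared pairs by the smaller −log10 q, the 5 strongest peaks of each time only, the 3 most displaced and the 3 narrowest pairs with a fold of at least 10, the densest 100 kb, and peaks that overlap the most peaks of the other time. Grouping into chromosomes 1 to 5, runs, and classes of reads and width were chosen after the data were seen. The gene table at hand is of another build: it was not used, and motif and nearest-gene results were not run.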

Additional observations from a re-analysis of the deposited data

Results flagged for a closer look

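Between 25 and 30 min, Otx2 and Oc1 moved in opposite directions in 2 measures, and neither difference was tested, since each antibody has 1 library at each time. The median width difference of matched peaks, 30 minus 25 min, was -96 bases for Otx2 and 25 bases for Oc1. The smallest width in the list went from 157 to 107 bases for Otx2 and from 194 to 200 bases for Oc1. The list length changed by -2451 peaks for Otx2 and by 887 peaks for Oc1.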

How the results depend on the processing

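Keeping chromosome M and using numbered chromosomes only left the 9 values recomputed under each within their own 95% intervals. Other rules moved the shares of shared peaks at 25 and 30 min. They were 32.6% and 41.4% when each peak covered 50% of the other, 38.7% and 49.2% with summits within 100 bases, 55.0% and 55.4% with a −log10 q of at least 5, and 54.8% and 56.2% in the 5000 strongest peaks of each list. With both lists cut to at least 10 summit reads, an alternative added after the data were seen, they were 61.9% and 60.8%. In that alternative the share at 25 min was the higher one, and its list was the shorter, with 2451 against 2541 peaks. The shares by read class given earlier were set against the whole list of the other time. The stricter overlap rules drop distant summits by construction. The median summit distance was 48 bases with the 50% rule and 40 bases with summits within 100 bases, and it was 52 bases with at least 10 reads. Stricter lists raised median width, fold and spacing at both times. The percent of peaks on Z and on chromosomes 1 to 5 stayed lower at 30 min in every alternative run for them. No paired analysis was possible because each condition has 1 library. The motif alternative was not run. Peaks of 5 or fewer reads made up 35.0% of the list at 25 min and 14.2% at 30 min. The recovered depths before scaling were 1.17 and 1.19 reads per kb. The library at 30 min was scaled by 0.845, and the recovered control depths were 1.88 reads per kb at 25 min and 1.01 at 30 min. The part of depth, scaling and control in these shares was not tested.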
